A study of Homo sapiens with 6 samples.

Results

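Cancer cells display surface proteins that hold back or call in immune cells, and 10 such genes are described here after X-rays in the MDA-MB-231 line. This established line comes from a human breast cancer that lacks the oestrogen and progesterone receptors and HER2 amplification. The 10 genes were chosen by name, 1 row each among the 61280 rows of the deposited table, as ligands of T cell checkpoints (CD274, PDCD1LG2, CD276, LGALS9), of the phagocytosis checkpoint (CD47), and of receptors on natural killer (NK) cells (PVR, NECTIN2, MICA, MICB, ULBP2). The irradiated group is 3 samples taken 24 h after a dose of 20 Gy of X-rays. The control group is 3 non-treated samples of the same line, for which the labels give no culture time, so culture time and irradiation cannot be told apart. RNA was sequenced, and levels are TPM, the share of a library's transcripts that belongs to a gene, corrected for transcript length and given on a common total. Whether the replicates are separate cultures is not stated in the labels, so the spread behind each p-value may be technical.

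These ligands work through partners on other cells. CD274 (PD-L1) and PDCD1LG2 (PD-L2) bind PD-1 and dampen T cells, while CD47 binds SIRPA on macrophages as a signal against engulfment. PVR and NECTIN2 bind both the activating receptor CD226 and the inhibitory receptor TIGIT. MICA, MICB and the ULBP and RAET1 proteins bind NKG2D, an activating receptor of NK cells and some T cells, and are known to appear on infected or transformed cells and after stress such as DNA damage.

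ULBP2 was the member that passed the test, and it was higher after irradiation. Of the 10 genes, 9 reached the level needed for testing, 1 was called higher and none lower at an adjusted p under 0.05, against 10.6% of the 14621 rows tested that were called in either direction (6.53% higher and 4.07% lower). With 1 of 9, the members' share of calls was close to that background. At an unadjusted p under 0.05 by the same limma fit, 4 members were higher and 1 was lower, a state of 28% of all tested rows (16.9% higher and 11.1% lower). The irradiated and control values did not overlap for 6 of the 9 members, a state shared by 34.9% of all rows tested; 5 members lay higher (20.4% of rows) and 1 lower (14.5% of rows). The log2 change was above 0 for 6 of 9, and for 54.9% of all rows. The median log2 change of the 9 was 0.12, against 0.03 over all tested rows.

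The markers of this line were present. VIM, CD44, EGFR, KRT8, KRT18 and AXL summed to 2805 to 2888 TPM in irradiated libraries and 3187 to 3270 TPM in control libraries, with VIM and AXL called lower after irradiation. PGR was listed at 0 in every library, and ESR1 stayed at or below 0.39 TPM, while the luminal genes GATA3 and FOXA1 were low, at 2.97 to 4.96 TPM. Of 8 T and NK lymphocyte markers, 5 stayed below 1 TPM in every library. The list's sum was 43.4, 3.55 and 3.13 TPM in irradiated replicates 1 to 3, against 0.93, 1.92 and 1.33 TPM in control replicates 1 to 3. PTPRC, the pan-leukocyte gene CD45, set the first of these sums with 40.4 TPM in irradiated replicate 1, and was at most 0.45 TPM in the other libraries. CD3E, CD2, KLRF1, NKG7 and GNLY were at or below 0.10 TPM in every library, that one included. Without PTPRC the sum was 2.99 to 3.43 TPM in irradiated and 0.78 to 1.80 TPM in control libraries. CD3D, a T cell receptor subunit, made up most of it in the irradiated libraries and was itself called higher (log2 change 1.04 ± 0.21 SE, adjusted p = 0.0248). Its control values were at or below 1 TPM, so it reached the level for testing through its irradiated values. All 5 myeloid markers stayed below 1 TPM. The part of lymphocyte and myeloid transcripts in the results was not tested. ULBP2 kept its call in the fit without irradiated replicate 1. That fit leaves out the high PTPRC value only. It does not measure lymphocyte or myeloid transcripts in the remaining libraries, so it cannot decide the question.

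ULBP2 has near relatives close by, and the sequence its transcripts share with theirs bears on how its reads can be counted. The promoter sequences printed below lie before the transcript start, do not bear on that counting and are shown as description. ULBP2 (ENSG00000131015) lies on chromosome 6 from 149942000 to 149949235 on the plus strand (GRCh38). RAET1G lies 18.9 kb before it and RAET1L 69.1 kb after it, and both are near relatives of it. Of the distinct 50-base stretches in ULBP2 protein-coding transcripts, 29.4% also occur in transcripts of RAET1L and 11.6% in those of RAET1G, so reads may have been divided between the 3 genes. The 230 bases from 250 to 21 before each RefSeq start (GRCh38.p14) are printed 5′ to 3′ in the direction of the gene, with capitals for the motifs found.
ULBP2 (chr6:149941764-149941993, plus strand): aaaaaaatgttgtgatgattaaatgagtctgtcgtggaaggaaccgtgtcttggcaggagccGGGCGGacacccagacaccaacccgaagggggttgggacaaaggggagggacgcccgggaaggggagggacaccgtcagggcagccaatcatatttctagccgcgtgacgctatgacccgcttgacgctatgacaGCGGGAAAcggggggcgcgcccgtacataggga
RAET1G (chr6:149923142-149923371, minus strand): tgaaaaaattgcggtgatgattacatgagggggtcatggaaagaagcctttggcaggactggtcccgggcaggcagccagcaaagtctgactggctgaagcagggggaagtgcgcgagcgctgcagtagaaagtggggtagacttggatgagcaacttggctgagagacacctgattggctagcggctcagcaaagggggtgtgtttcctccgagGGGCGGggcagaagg
RAET1L (chr6:150025553-150025782, minus strand): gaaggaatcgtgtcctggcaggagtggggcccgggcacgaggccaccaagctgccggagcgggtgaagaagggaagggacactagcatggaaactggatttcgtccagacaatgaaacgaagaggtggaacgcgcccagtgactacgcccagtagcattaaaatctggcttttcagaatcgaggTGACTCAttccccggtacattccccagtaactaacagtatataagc

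Aligned ULBP2 and RAET1G promoter bases were identical at 65.4%, those of ULBP2 and RAET1L at 62.8%, and those of RAET1G and RAET1L at 63.5%. In the same order these shares count 208, 188 and 192 aligned positions, with gaps left out. Unrelated promoters were not aligned, so the shares have no background to be read against. A total of 5 motifs was searched on both strands, with no overlap between the matches found. The GC box GGGCGG was found for ULBP2 and RAET1G, and occurs in 39.96% of the 35116 RefSeq promoter windows of this length. The E2F-like motif TTTNNCGC was found for ULBP2 (on the minus strand) and in 5.50% of windows. The AP-1 motif TGANTCA was found for RAET1L and in 6.20% of windows. The interferon motifs, GAS (TTCNNNGAA, in 6.19% of windows) and the ISRE core (GAAANNGAA, in 6.26%), were found in none of these 3. Of the 9 members with a RefSeq promoter (the first listed start of each), CD274 was the one with a match to either, and it matched both. A match describes the letters only.

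The NKG2D ligands come first because the called member is among them. ULBP2, an NKG2D ligand tethered to the membrane by a lipid anchor, had 28.98, 29.21 and 27.64 TPM in irradiated libraries, against 19.87, 18.97 and 20.49 TPM in control libraries. The lowest irradiated value stood well above the highest control value. The mean was 28.6 ± 0.848 TPM in irradiated and 19.8 ± 0.764 TPM in control libraries (SD, n = 3 each), a rise of 44.7%. ULBP2 rose by a log2 change of 0.51 ± 0.06 SE (95% interval 0.37 to 0.66, adjusted p = 0.00673), and 7.24% of tested rows had a larger absolute change. In bulk RNA, more cells with the transcript and more transcript per cell cannot be told apart. ULBP2 passed in all 16 alternatives, with a log2 change of 0.46 to 0.54 and an adjusted p of 0.00456 to 0.0456.

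MICA and MICB, transmembrane NKG2D ligands encoded in the HLA region of chromosome 6 with 79.6 kb between them, were more abundant than ULBP2 and were not called. MICA (chromosome 6, 31399784 to 31415315) had 70.54, 71.81 and 70.94 TPM in irradiated libraries and 68.98, 65.99 and 69.61 TPM in control libraries. The groups did not overlap, but the gap was small beside the control spread (log2 change 0.06 ± 0.04 SE, interval -0.04 to 0.16, adjusted p = 0.427). MICB (chromosome 6, 31494881 to 31511124) had 30.56, 31.38 and 35.39 TPM in irradiated libraries and 30.96, 29.50 and 28.91 TPM in control libraries. Irradiated replicate 3 was the highest, and irradiated replicate 1 lay within the control range (log2 change 0.12 ± 0.07 SE, interval -0.05 to 0.29, adjusted p = 0.334). The MICB change was 0.055 without irradiated replicate 3 and 0.068 after median-ratio scaling. That of MICA was 0.036 without control replicate 2, 0.010 after median-ratio scaling and 0.00020 after the GC and length correction. The 2 genes share under 2% of their 50-base stretches with each other (1.89% of MICA's and 1.74% of MICB's).

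The relatives of ULBP2 that are not members split. RAET1G, another NKG2D ligand, had 7.69, 8.46 and 8.15 TPM in irradiated libraries and 5.67, 5.45 and 6.05 TPM in control libraries, and rose (log2 change 0.44 ± 0.09 SE, adjusted p = 0.0306). RAET1L had 1.64, 1.28 and 1.84 TPM in irradiated libraries and 0.77, 0.40 and 0.51 TPM in control libraries, and was called higher (log2 change 0.73 ± 0.17 SE, adjusted p = 0.0357). All its control values were below 1 TPM, so it reached the level for testing only through the irradiated libraries, where it is high. Its call is therefore no separate support for a rise. RAET1G and RAET1L both lost the call without irradiated replicate 1 or 3 or any 1 control replicate, with no filter, after quantile normalization and under a replicate block, with adjusted p up to 0.116 for RAET1G and 0.121 for RAET1L. ULBP3 averaged 9.70 ± 0.540 TPM in irradiated and 10.1 ± 0.633 TPM in control libraries (adjusted p = 0.712), and RAET1E averaged 6.31 ± 0.478 TPM in irradiated and 7.14 ± 0.465 TPM in control libraries (adjusted p = 0.370). ULBP1 was at or below 0.06 TPM in every library. The difference in group means was 8.83 TPM for ULBP2, 2.38 TPM for RAET1G and 1.03 TPM for RAET1L, each higher after irradiation.

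**Figure D1:**
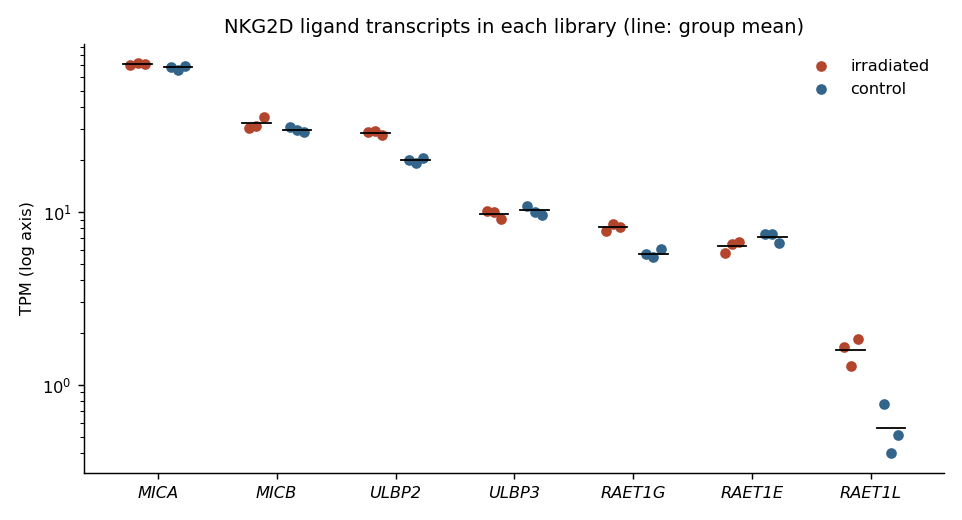
TPM (log axis) of 7 NKG2D ligand genes in each of the 3 irradiated and 3 control libraries, with a line at the group mean. ULBP2, RAET1G and RAET1L lie higher in all 3 irradiated libraries than in any control library, while MICB, ULBP3 and RAET1E overlap; MICA does not overlap but was not called.

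Within the NKG2D ligand transcripts, ULBP2 took a larger share in the irradiated libraries. Transcripts of the 8 genes (MICA, MICB, ULBP1, ULBP2, ULBP3, RAET1E, RAET1G, RAET1L) summed to 155, 159 and 160 TPM in irradiated libraries and 145, 138 and 142 TPM in control libraries. ULBP2 made up 18.7%, 18.4% and 17.3% of that sum in irradiated libraries, against 13.7%, 13.8% and 14.4% in control libraries. The ratio of ULBP2 to MICA, which a common factor for all rows of a library cannot change, was 0.411, 0.407 and 0.390 in irradiated libraries and 0.288, 0.287 and 0.294 in control libraries. The ratios did not overlap, with an exact two-sided permutation p of 0.10, the smallest that 3 against 3 libraries allow.

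Among the nectin family ligands, PVR was lower in every irradiated library but missed the threshold. PVR, the poliovirus receptor CD155 (chromosome 19, 44643798 to 44663583), had 51.70, 48.02 and 54.92 TPM in irradiated libraries, against 59.31, 58.15 and 59.75 TPM in control libraries. No irradiated value reached the control range, and the irradiated libraries spread more widely. The log2 change was -0.20 ± 0.06 SE (interval -0.33 to -0.06, adjusted p = 0.0802), and it was -0.24 with an adjusted p of 0.0222 after median-ratio scaling, in a range of 0.0222 to 0.197 over the 16 alternatives. NECTIN2 (CD112), 183 kb further along the same chromosome at 44846175 to 44889228, had 67.49, 69.60 and 66.94 TPM in irradiated libraries and 70.47, 69.55 and 68.54 TPM in control libraries. These overlapped (log2 change -0.03 ± 0.04 SE, interval -0.13 to 0.07, adjusted p = 0.684), with a log2 change of -0.11 to -0.02 over the 16 alternatives. The ratio of PVR to NECTIN2 was 0.766, 0.690 and 0.820 in irradiated libraries, against 0.842, 0.836 and 0.872 in control libraries, again without overlap and with the smallest exact permutation p of 0.10.

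The PD-1 ligands, neighbours on chromosome 9 with 40.0 kb between them, are given together. CD274 (chromosome 9, 5450503 to 5470566), which encodes PD-L1, had 7.88, 6.49 and 9.47 TPM in irradiated libraries and 7.99, 8.79 and 7.61 TPM in control libraries. The irradiated libraries lay on both sides of the control range, with replicate 2 lowest and replicate 3 highest. The log2 change was -0.04 ± 0.14 SE (interval -0.36 to 0.28, adjusted p = 0.876). Its sign turned without irradiated replicate 2 (0.081), without control replicate 2 (0.011) and after the GC and length correction (0.014), with no call in any alternative.

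PDCD1LG2 (chromosome 9, 5510570 to 5571254), which encodes PD-L2, was expressed near the level needed for testing. It had 1.92, 1.61 and 2.22 TPM in irradiated libraries and 1.05, 1.14 and 1.37 TPM in control libraries. All irradiated values were above all control values, with a mean 61.5% higher. The log2 change of 0.41 ± 0.15 SE (interval 0.07 to 0.76) did not pass (unadjusted p = 0.0244, adjusted p = 0.117), nor did it in any of the 15 alternatives that tested it. The ratio of CD274 to PDCD1LG2 was 4.10, 4.03 and 4.27 in irradiated libraries and 7.61, 7.71 and 5.55 in control libraries, without overlap (exact permutation p = 0.10). In all, 10 ratios, shares and sums of ligand TPM were compared, and 8 did not overlap, each at an exact permutation p of 0.10 (0.125 adjusted by Benjamini-Hochberg over the 10). Each of these 8 contains ULBP2, PVR or PDCD1LG2, whose own values did not overlap. They restate those genes and are no further support. Among single rows tested, 34.9% did not overlap. The other two overlapped: CD276 over CD274 (7.31, 9.31 and 5.68 in irradiated libraries and 6.53, 5.97 and 6.69 in control libraries, exact permutation p = 0.50) and the share of MICA, MICB and ULBP2 in the NKG2D ligand sum (83.7% in irradiated and 83.3% in control libraries, exact permutation p = 0.40).

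**Figure D2:**
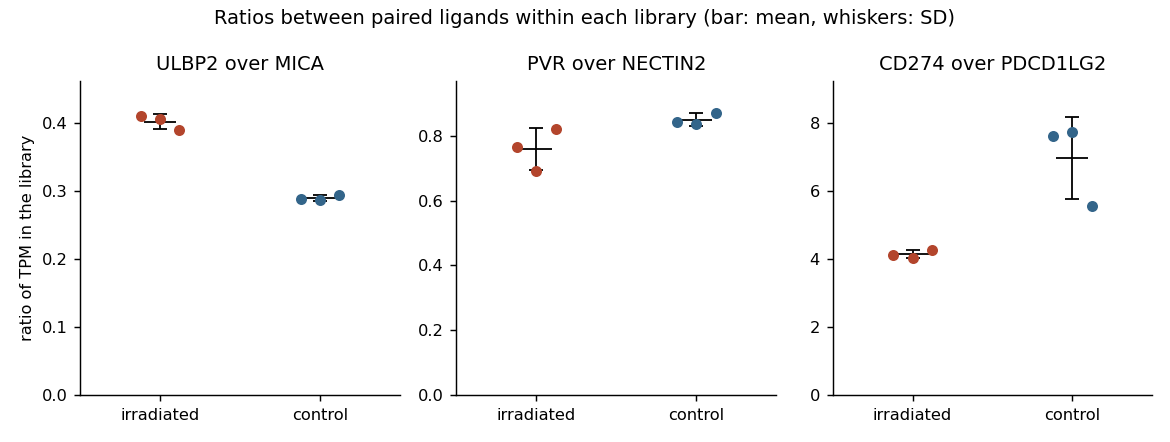
Ratio of TPM between 2 ligands in each library (points, replicates 1 to 3 from left to right), with the mean and SD of the 3 irradiated and the 3 control libraries. ULBP2 over MICA is higher in irradiated libraries (mean 0.402, against 0.290 in control), and PVR over NECTIN2 (0.759, against 0.850 in control) and CD274 over PDCD1LG2 (4.13, against 6.96 in control) are lower.

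The other checkpoint ligands were slightly higher without a call, or were too low to test. CD276 (chromosome 15, 73683966 to 73714518), which encodes the B7-H3 protein common on solid tumours, had 57.63, 60.39 and 53.76 TPM in irradiated libraries, against 52.21, 52.46 and 50.90 TPM in control libraries. CD47 (chromosome 3, 108043094 to 108091862) had 44.99, 41.29 and 42.61 TPM in irradiated libraries, against 38.71, 39.84 and 38.39 TPM in control libraries. Both had every irradiated value above every control value, with means 10.4% and 10.2% higher.

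Neither of these passed. The log2 change of CD276 was 0.14 ± 0.06 SE (interval 0.01 to 0.27, adjusted p = 0.160), and that of CD47 was 0.14 ± 0.05 SE (interval 0.01 to 0.26, adjusted p = 0.155). CD47 was called after the GC and length correction (log2 change 0.22, adjusted p = 0.0347, in a range of 0.0347 to 0.338 over its 16 alternatives), and CD276 in no alternative. After median-ratio scaling both changes were 0.09, and that of CD276 was 0.07 after the GC and length correction. LGALS9 (chromosome 17, 27629798 to 27649560), which encodes galectin-9, a ligand of TIM-3, had 0.69, 0.33 and 0.43 TPM in irradiated libraries and 0.30, 0.55 and 0.17 TPM in control libraries and was not tested. Its groups overlapped, and 20.1% of its 50-base stretches occur in other genes (9.31% in LGALS9C and 7.43% in AC015688.4), so even these low values are uncertain.

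**Figure D3:**
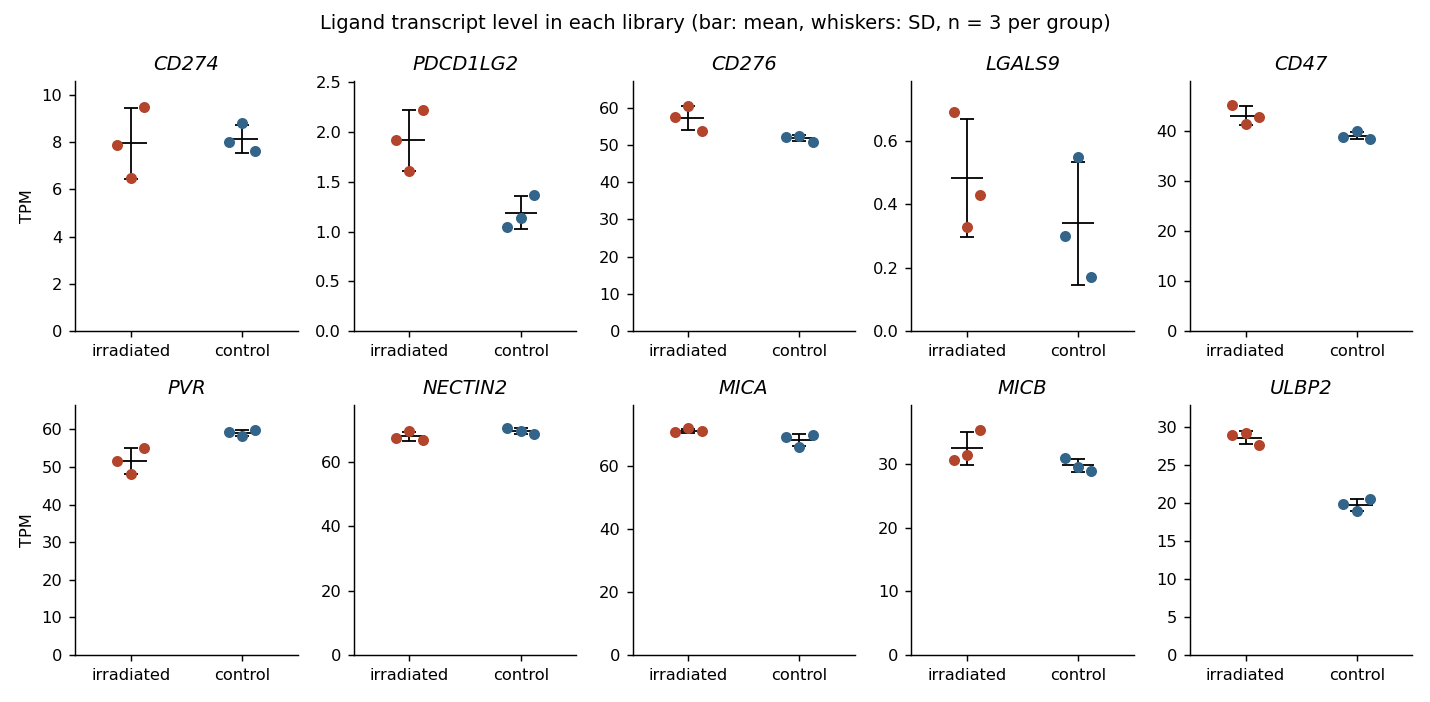
TPM of the 10 ligand genes in each library (points, replicates 1 to 3 from left to right; irradiated left, control right), with mean and SD, n = 3 per group, and each axis starting at 0. ULBP2 shows the clearest separation (mean 28.6 TPM in irradiated and 19.8 TPM in control libraries), PVR is lower in the irradiated libraries, and CD274 and LGALS9 overlap.

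In level the 10 genes spanned a wide range, and their order was similar in both groups. MICA (71.1 TPM on average) and NECTIN2 (68.0 TPM) led in irradiated libraries, where their values did not overlap. In control libraries NECTIN2 (69.5 TPM) and MICA (68.2 TPM) overlapped. CD276 and PVR came next, at 57.3 and 51.5 TPM in irradiated libraries, where they overlapped, against 51.9 and 59.1 TPM in control libraries, where PVR was the higher in all 3. CD47, MICB and ULBP2 followed in that order in both groups, then CD274, PDCD1LG2 and LGALS9. The 10 genes summed to 362, 360 and 364 TPM in irradiated libraries and 350, 345 and 346 TPM in control libraries.

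**Figure D4:**
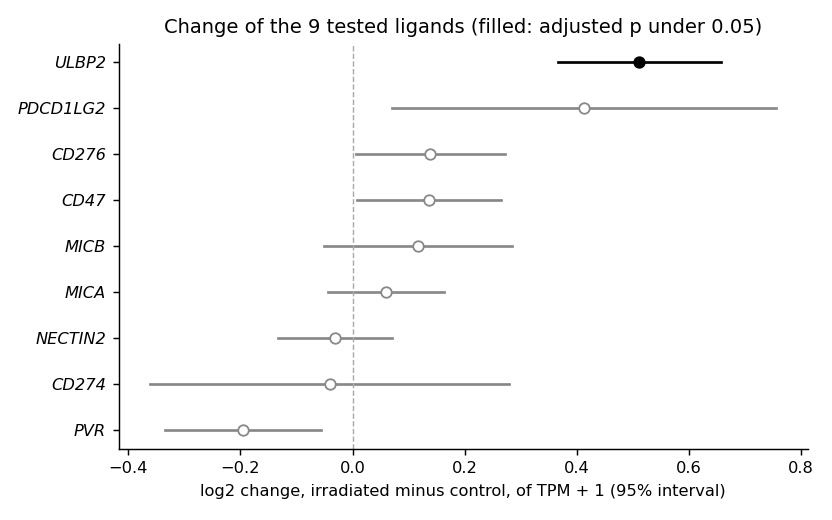
Log2 change (irradiated minus control, of TPM + 1) of the 9 tested ligands with its 95% interval; a filled point passed an adjusted p of 0.05. ULBP2 (0.51) is the filled point, the intervals of PDCD1LG2, CD276 and CD47 lie just above 0, that of PVR lies below 0, and those of MICA, MICB, NECTIN2 and CD274 cross it.

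Other genes of these pathways were read from the same fit. Of 23 other NK cell ligands, 17 were tested, 6 were called higher (35.3%, against 6.53% of all rows) and none lower, with 8 higher and 1 lower at an unadjusted p under 0.05 (16.9% and 11.1% of all rows) and a median log2 change of 0.19. Besides RAET1G and RAET1L these were HLA-E, HLA-C and B2M, which encode parts of class I molecules that inhibit NK cells, and the adhesion gene ICAM2. RAET1L was tested only through its irradiated values, so the share called takes in a gene selected for being high there. RAET1G and RAET1L share sequence with ULBP2, so their calls may not be separate from its call. Under a replicate block, the genes of this list still called were HLA-C and HLA-E. HLA-E, the ligand of the inhibitory receptor NKG2A, had 103.72, 104.20 and 102.92 TPM in irradiated and 85.45, 85.53 and 84.60 TPM in control libraries (log2 change 0.28 ± 0.04 SE, adjusted p = 0.00921). HLA-C, a ligand of killer cell immunoglobulin-like receptors, averaged 256 ± 9.84 TPM in irradiated and 201 ± 1.18 TPM in control libraries (log2 change 0.35 ± 0.04 SE, adjusted p = 0.00617). HLA-E and HLA-C passed in all 16 alternatives.

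B2M, the light chain of class I molecules, rose by less (log2 change 0.13 ± 0.03, adjusted p = 0.0469). It was not called in any fit with 1 library left out, with no filter, after median-ratio scaling, with eBayes without trend or under a replicate block (adjusted p up to 0.305 over its alternatives). HLA-B averaged 167 ± 17.2 TPM in irradiated and 134 ± 16.8 TPM in control libraries and was not called (adjusted p = 0.0964). HLA genes are similar to each other and vary between alleles, so their single values are uncertain. ICAM2, a ligand of the integrin LFA-1, averaged 16.0 ± 0.546 TPM in irradiated and 10.5 ± 1.21 TPM in control libraries and rose (log2 change 0.57 ± 0.10, adjusted p = 0.0160), except without control replicate 2 or under a replicate block (adjusted p up to 0.0664). ICAM3 had a log2 change of 0.67 ± 0.17 and just missed (adjusted p = 0.0508).

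Of 23 other checkpoint and costimulatory ligands, 13 were tested and 2 were called higher (15.4%, against 6.53% of all rows) and none lower, with 5 higher and 0 lower at an unadjusted p under 0.05 (16.9% and 11.1% of all rows) and a median log2 change of 0.18. LGALS3, which encodes galectin-3, a lectin that can bind LAG3, had 120.67, 122.42 and 120.04 TPM in irradiated libraries, against 78.43, 76.07 and 86.67 TPM in control libraries. It rose by a log2 change of 0.59 ± 0.06 SE (adjusted p = 0.00358) and passed in all 16 alternatives. CD40 is counted in this list although it is a receptor, for CD40 ligand on helper T cells. It averaged 51.5 ± 1.44 TPM in irradiated and 40.8 ± 1.07 TPM in control libraries (log2 change 0.33 ± 0.05 SE, adjusted p = 0.0123). Its call was lost without control replicate 2 and under a replicate block (adjusted p up to 0.0620). The costimulators CD80 and CD86 stayed below 1 TPM in every library.

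**Figure D5:**
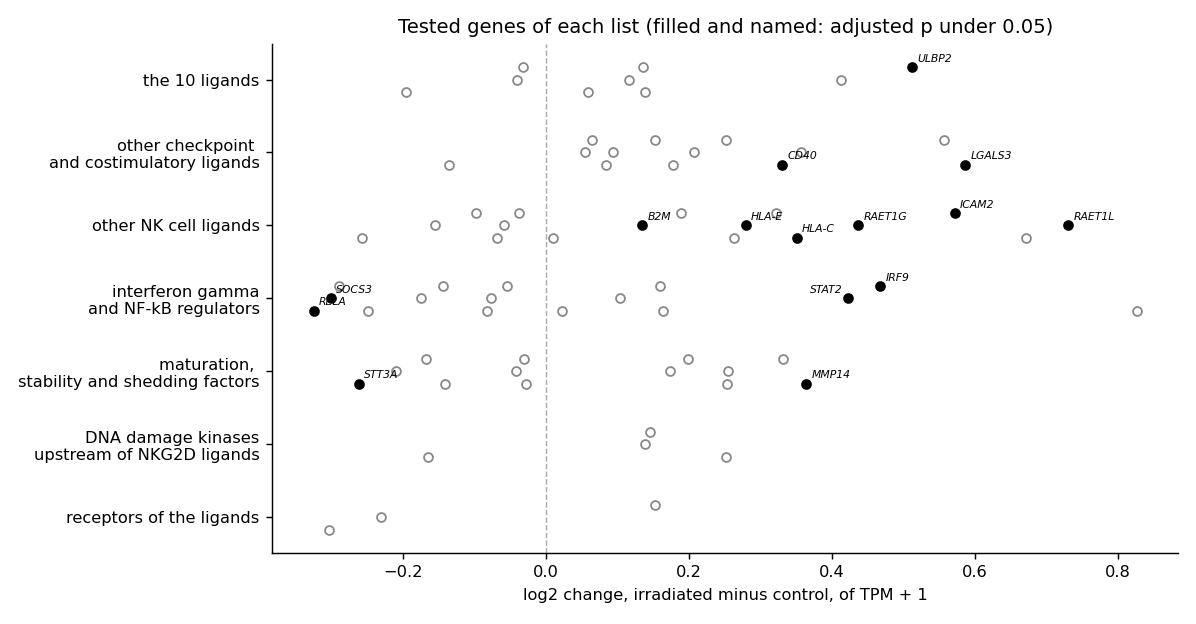
Log2 change (irradiated minus control, of TPM + 1) of the tested genes among the 10 ligands and in each of the 6 lists; filled, named points passed an adjusted p of 0.05, and vertical offsets only separate points. Filled points lie right of 0 in the ligand lists, and on both sides of 0 among regulators (IRF9 and STAT2 right, RELA and SOCS3 left) and maturation factors (MMP14 right, STT3A left).

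Among genes that control these ligands, calls fell in both directions. Of 16 interferon gamma and NF-kB regulators, all tested, 2 were called higher and 2 lower, with a median log2 change of -0.07. Each direction holds 12.5% of the list, against 6.53% of all rows called higher and 4.07% called lower. At an unadjusted p under 0.05 by limma, 3 of the 16 were higher and 4 were lower (16.9% and 11.1% of all rows). IRF9 and STAT2, which are subunits of the interferon-activated ISGF3 complex, rose by log2 changes of 0.47 ± 0.06 (adjusted p = 0.00921) and 0.42 ± 0.08 (adjusted p = 0.0202). RELA, the p65 subunit of NF-kB, fell (-0.32 ± 0.08, adjusted p = 0.0474), and so did SOCS3, a feedback inhibitor of cytokine signalling (-0.30 ± 0.06, adjusted p = 0.0245).

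IRF9 passed in all 16 alternatives. STAT2 and SOCS3 lost their calls without irradiated replicate 1 or 3 or any 1 control replicate and under a replicate block, and STAT2 also with no filter (adjusted p up to 0.0771 for STAT2 and 0.0908 for SOCS3). RELA passed in only 5 of 16 alternatives. It lost its call without irradiated replicate 1, 2 or 3 or control replicate 1 or 2, with a pseudocount of 0.1, no filter, quantile normalization, the mitochondrial genes left out, eBayes without trend or a replicate block (adjusted p up to 0.144). IRF1, a known activator of CD274 transcription, had 50.06, 49.39 and 11.61 TPM in irradiated libraries and 15.39, 10.61 and 29.56 TPM in control libraries. Its values overlapped and differed several-fold within each group (adjusted p = 0.398). In the same order CD274 had 7.88, 6.49 and 9.47 TPM in irradiated libraries and 7.99, 8.79 and 7.61 TPM in control libraries. A relation of IRF1 to CD274 was not tested.

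Of 14 factors for maturation, stability and shedding of the ligands, 13 were tested, with 1 called higher and 1 lower and a median log2 change of -0.03. At 7.69% in each direction, these shares of calls are near those of all rows (6.53% higher and 4.07% lower). At an unadjusted p under 0.05 by limma, 5 of the 13 were higher and 1 was lower (16.9% and 11.1% of all rows). MMP14, a membrane protease reported to shed MICA, averaged 87.0 ± 3.25 TPM in irradiated and 67.4 ± 3.16 TPM in control libraries (log2 change 0.36 ± 0.05 SE, adjusted p = 0.0111), and lost its call without control replicate 1 or under a replicate block (adjusted p up to 0.0533). STT3A, the catalytic subunit of an oligosaccharyltransferase that glycosylates PD-L1, averaged 101 ± 3.80 TPM in irradiated and 122 ± 4.42 TPM in control libraries (log2 change -0.26 ± 0.05 SE, adjusted p = 0.0206), and lost its call without irradiated replicate 1 or any 1 control replicate, with no filter, with eBayes without trend and under a replicate block (adjusted p up to 0.0722). CMTM6, which keeps PD-L1 at the surface, averaged within 0.03 of control on the log2 scale (interval -0.18 to 0.12). QPCTL, the enzyme that modifies CD47 for binding to SIRPA, had 15.07, 15.73 and 14.86 TPM in irradiated and 12.91, 12.26 and 10.60 TPM in control libraries and was not called (adjusted p = 0.0592).

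None of the 4 DNA damage kinases known upstream of NKG2D ligands (ATM, ATR, CHEK1, CHEK2) was called by limma, against 10.6% of all rows tested. At an unadjusted p under 0.05, 1 was higher and none lower (16.9% and 11.1% of all rows). That 1 was CHEK2, with 14.75, 15.88 and 15.76 TPM in irradiated libraries and 13.80, 12.25 and 12.44 TPM in control libraries. Its groups did not overlap (log2 change 0.25 ± 0.08 SE, adjusted p = 0.0872). CHEK1 averaged 40.5 ± 4.54 TPM in irradiated and 45.3 ± 2.56 TPM in control libraries (adjusted p = 0.276), and ATM averaged 17.7 ± 0.801 TPM in irradiated and 16.0 ± 1.28 TPM in control libraries (adjusted p = 0.295). Of the 15 receptors for the ligands, 3 were tested and none was called, against 10.6% of all rows. At an unadjusted p under 0.05, 0 were higher and 1 was lower (16.9% and 11.1% of all rows). In every library, 4 of the 15 receptors were listed at 0. The most abundant was CD96, a receptor for PVR usually found on T and NK cells, with 16.91, 20.42 and 18.55 TPM in irradiated libraries, against 20.85, 22.99 and 22.10 TPM in control libraries. No irradiated value reached the control range (log2 change -0.23 ± 0.09 SE, adjusted p = 0.130). SIRPA, the receptor of CD47, averaged 1.45 ± 0.238 TPM in irradiated and 1.20 ± 0.00577 TPM in control libraries (adjusted p = 0.519).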

How the data were processed

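Per the labels' protocols, a TruSeq RNA kit turned total RNA of the 6 samples into sequencing libraries. The sources used here give neither strand nor poly-adenylation selection. Per the submitters' processing notes, the build was hg38 and the tools were HISAT2, StringTie and RSEM, with no version, role or order stated. The authors deposited TPM values (length-corrected shares of each library), rounded to 2 decimals, for 61280 rows. TPM keeps no read depth, and when abundant transcripts rise the others fall as shares.

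A row was tested (14621 in all) where 3 or more of the 6 samples had 1 TPM or more. Values entered as log2(TPM + 1), which understates changes near 1 TPM. The test was two-sided limma 3.58.1 (R 4.3.3; lmFit and trended eBayes, 4 residual and 3.39 prior degrees of freedom), with p-values adjusted by Benjamini-Hochberg over the tested rows and a threshold of 0.05. Intervals are 95% intervals from the same fit. Ratios within a library were compared by an exact two-sided permutation test over the 20 assignments. The pipeline was tested on simulated data. Alternatives changed the filter (none, or 5 TPM), the pseudocount (0.1), the scaling (median-ratio, quantile, or without mitochondrially encoded genes) or eBayes (untrended, or robust), added a replicate block or a GC and length correction, or left out each library in turn.

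The members and the gene lists were chosen with earlier results of these data known. Named genes were the 10 members and, in each of 6 lists, up to 6 called genes with the largest change or the 2 most abundant in a list without calls. Any other gene printed with values, such as HLA-B, ICAM3, IRF1, PTPRC, CD3D and CHEK2, was named after its values were seen. Some list genes are not reported here and are left out of the list counts. Groups came from the sample titles. Replicate numbers are shared by the groups, but the deviations from the group means correlated at only 0.03, -0.06 and -0.03 between same-numbered samples, so the numbers were not taken as pairs. Within a group, 2 libraries had identical values in at most 0.479% of tested rows. Coordinates (1-based) and transcripts came from GENCODE 29 on GRCh38, the assembly of hg38. Promoter sequences are RefSeq's on GRCh38.p14 and were aligned with Biopython 1.88.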

Additional observations from a re-analysis of the deposited data

How the results depend on the processing

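ULBP2 kept its call in all 16 alternatives, the replicate block included. The number of ligands called, 1, was 2 after median-ratio scaling, which added PVR, and 2 after the GC and length correction, which added CD47, and stayed at 1 with any library left out. CD274 changed sign in 3 fits (0.014 after the GC and length correction, 0.081 without irradiated replicate 2, 0.011 without control replicate 2), with a range of -0.16 to 0.081 with 1 library left out and no call. Rows called over the whole table numbered 1550, against 497 with no filter, 993 with eBayes without trend, 362 with a replicate block, and 306 to 1390 with 1 library left out (lowest without control replicate 2). Higher calls were 61.6% of all calls, and 40.6% after median-ratio scaling. Other NK cell ligands called numbered 6, against 3 with no filter, 2 with the replicate block and 2 to 5 with 1 library left out. Regulators called numbered 4, against 2 with no filter, 1 with the block and 1 to 3 with 1 library left out. Maturation factors called numbered 2, against 1 with no filter or eBayes without trend, 0 with the block and 0 to 2 with 1 library left out. In the list of other checkpoint and costimulatory ligands, calls numbered 2 (LGALS3 and the receptor CD40), against 1 with the block and 1 to 2 with 1 library left out. Among the DNA damage kinases, 1 (ATR) was called after the GC and length correction. The cause of these differences was not tested, and fits with fewer samples or degrees of freedom have less power. The TPM table keeps no read depth, so precision rests on the spread of 3 libraries per group.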

Other observations

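Single libraries stood apart for some genes linked to these ligands. ADAM10, a protease that sheds NKG2D ligands, had 125.85, 80.65 and 136.23 TPM in irradiated libraries and 123.30, 145.82 and 119.33 TPM in control libraries, with irradiated replicate 2 lowest. That library also had the lowest CD274 and PVR values of all 6. This was not particular to the ligands: the same library was lowest for EGFR, CD44 and HIF1A, and highest for others such as KRT8 and STUB1. CD24, an anti-phagocytic surface protein that binds SIGLEC10, had 2.78, 3.43 and 4.67 TPM in irradiated libraries, against 2.50, 1.89 and 1.95 TPM in control libraries, without overlap and without a call (log2 change 0.56 ± 0.18 SE, adjusted p = 0.0910). TNFSF9, the 4-1BB ligand, had 9.11, 10.28 and 8.03 TPM in irradiated libraries, against 7.35, 6.24 and 7.11 TPM in control libraries, also without a call (adjusted p = 0.0938).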
